A study of Mus musculus with 6 samples.

Results

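The 9 genes described here encode the pore-forming alpha subunits of voltage-gated sodium channels: Scn1a, Scn2a1, Scn3a, Scn8a, Scn7a, Scn9a, Scn4a, Scn10a and Scn11a. They were chosen by name, as a gene family, from the 37273 genes that the GENCODE annotation of mm9 places on the nuclear chromosomes. For each gene the reads over the gene body and over the promoter were counted in all 6 libraries. The promoter is the stretch of 5 kb before the transcription start site (TSS). The measured quantity is the amount of DNA recovered with an antibody to histone H4 acetylated at lysine 5 (H4K5ac), a mark that is found on transcribed genes. It is not a measure of mRNA.

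Voltage-gated sodium channels open when the membrane depolarises and carry the inward current of the rising phase of the action potential. Scn1a (NaV1.1), Scn2a1 (NaV1.2), Scn3a (NaV1.3) and Scn8a (NaV1.6) are the alpha subunits of neurons of the central nervous system and are called neuronal below. NaV1.1 is prominent in inhibitory interneurons, NaV1.2 and NaV1.6 sit at the axon initial segment of excitatory neurons, and NaV1.3 is best known from the developing brain. The other 5 members are best known outside the brain: Scn4a (NaV1.4) in skeletal muscle, Scn9a (NaV1.7), Scn10a (NaV1.8) and Scn11a (NaV1.9) in peripheral sensory neurons, and Scn7a (NaX) in glia and in sodium-sensing cells around the ventricles.

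The mice were C57/BL6, 6 months old per the labels, and hippocampal chromatin was used in both groups. The fear-conditioned group (FC) was given a foot shock in a context in 2 sessions, and the control group (CON) was exposed to the context without shock. Per the study's methods, the tissue was taken within 1 h of a memory test on day 3. For each group there was 1 library after immunoprecipitation of H4K5ac (H4K5ac-ChIP), 1 mock library with IgG (IgG-IP) and 1 library of DNA without immunoprecipitation (input). Per the study's methods, 3 hippocampal samples per group were cross-linked and immunoprecipitated separately, and libraries were pooled after size selection. Whether 1 library here holds 1 or all 3 of them is not given in the sources used here. There were thus no replicates and no spread between animals is known. Each interval given is a 95% interval for counting error, within a library or between libraries, and no p-value was computed. The hippocampus is a mixture of cells, so fewer cells with the mark and less of the mark per cell cannot be told apart.

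The libraries held 14549689 to 45673239 reads, the fewest in FC IgG-IP and the most in FC input, and 11.5 to 17.8% of the reads in a library were repeats of another by position and strand. The libraries also differed in the GC content they favoured. Across genes, Spearman's rho between the GC content of the gene body and the log2 ratio of FC over CON was 0.84 for input, 0.38 for H4K5ac-ChIP and -0.15 for IgG-IP. This touches the members, because the 5 genes on chromosome 2 had a GC content of 37.3 to 38.8% and the other 4 had 46.8 to 51.4%. Ratios are therefore also given less the GC median, which is the median ratio of all genes within the same 1% step of GC content. Of cell type marker genes, the FC gene bodies had a median log2 ratio to IgG-IP of 1.17 for 5 excitatory neuron genes, 0.47 for the 2 tested of 3 interneuron genes, 0.83 for 3 astrocyte genes, 1.56 for 3 oligodendrocyte genes and 0.81 for 3 microglia genes. It was 0.65 for the 3 tested of 4 skeletal muscle genes and 0.39 for 5 sensory neuron genes, against 0.64 for all genes tested. In CON the same medians were 0.85, -0.03, 0.74, 1.06, 0.43, 0.35 and 0.44, against 0.57. Over input they ran from -0.28 (microglia) to 0.77 (oligodendrocyte) for FC and from -0.06 (interneuron) to 0.96 (oligodendrocyte) for CON.

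The start sites of 4 members are shown first, since they are where an acetylation peak would be looked for. The stretches of Scn8a and Scn7a, the members of highest and lowest H4K5ac-ChIP density, each held 2 CpG. Each stretch runs from 150 bases before to 50 bases after an annotated start in mm9, 5′ to 3′ on the strand of the gene, with the CpG dinucleotides in capitals.
Scn8a, chr15:100785679-100785878, plus strand: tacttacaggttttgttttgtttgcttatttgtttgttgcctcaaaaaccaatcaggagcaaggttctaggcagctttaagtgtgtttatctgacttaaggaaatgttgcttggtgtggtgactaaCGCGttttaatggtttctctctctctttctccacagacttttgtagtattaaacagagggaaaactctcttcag
Scn3a, chr2:65405635-65405834, minus strand: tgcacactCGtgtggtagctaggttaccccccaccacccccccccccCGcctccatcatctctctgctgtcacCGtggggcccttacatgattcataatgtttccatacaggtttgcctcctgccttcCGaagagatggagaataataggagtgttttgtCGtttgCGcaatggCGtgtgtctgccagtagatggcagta
Scn2a1, chr2:65458764-65458963, plus strand: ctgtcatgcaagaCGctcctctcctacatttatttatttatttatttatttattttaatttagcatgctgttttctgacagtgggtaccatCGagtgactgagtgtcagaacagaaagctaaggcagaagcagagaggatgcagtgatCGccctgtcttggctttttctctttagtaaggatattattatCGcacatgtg
Scn7a, chr2:66622922-66623121, minus strand: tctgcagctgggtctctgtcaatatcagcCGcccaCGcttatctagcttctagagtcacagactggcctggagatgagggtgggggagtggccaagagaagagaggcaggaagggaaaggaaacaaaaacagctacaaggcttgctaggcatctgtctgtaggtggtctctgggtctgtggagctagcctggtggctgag

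In a window of 300 bases, from 250 before to 50 after the first start, the 9 members held between 1 CpG, in Scn10a, and 9, in Scn9a. The median over all 37273 genes was 6 and the upper quartile was 18, so none of the members reached the upper quartile. Scn8a, whose H4K5ac-ChIP density was the highest of the members, held 4, so the order of the members in that density was not the order of their CpG counts.

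A further sequence was looked for because sodium channel genes are textbook targets of the repressor REST, which binds an element called RE1. TTCAGCACC, any 2 bases and then GGACAGCGC was searched on both strands with up to 2 mismatches among the 18 letters, and no other motif was searched. A match lay within 5 kb of the first start in 0.491% of all genes. The members were searched more widely, over the gene body and 5 kb on either side, and no share of all genes was computed for that. Of the members, Scn2a1 held 1 match, at -883 bases from its first start, and Scn10a held 1 in the middle of the gene, 30049 bases after its start. Capitals mark the letters that match.
Scn2a1, chr2:65458021-65458040, plus strand: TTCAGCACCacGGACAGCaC
Scn10a, chr9:119573419-119573438, plus strand: TTCAGCACCagGGACAGaGC
The 1 kb around the Scn2a1 match held 5 H4K5ac-ChIP and 1 IgG-IP read in FC, and 15 and 7 in CON. The 1 kb around the Scn10a match held 14 and 5 reads in FC, and 18 and 6 in CON. These counts are too low to show enrichment or its absence. The match is a likeness of letters and was not tested as a binding site.

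Over the gene body, the neuronal members carried more H4K5ac-ChIP reads per base than the other members, while IgG-IP showed no such difference and input, in FC, a small one in the other direction. The summed density of the 4 neuronal genes was 0.51 RPKM, the reads per kb of gene scaled to the size of the library, in FC and 0.53 in CON, against 0.27 and 0.25 for the 5 other genes. The ratio of neuronal to other was 1.92-fold in FC, a log2 ratio of 0.94 (0.89 to 1.00), and 2.10-fold in CON, a log2 ratio of 1.07 (1.02 to 1.12). In IgG-IP the densities were 0.38 and 0.38 RPKM in FC and 0.39 and 0.39 in CON. In input the log2 ratio of neuronal to other was -0.18 (-0.23 to -0.14) for FC, and for CON it was -0.01 (-0.06 to 0.04). The counts behind the sums were 8362 and 3857 H4K5ac-ChIP reads in FC, and 9925 and 4185 in CON.

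**Figure D1:**
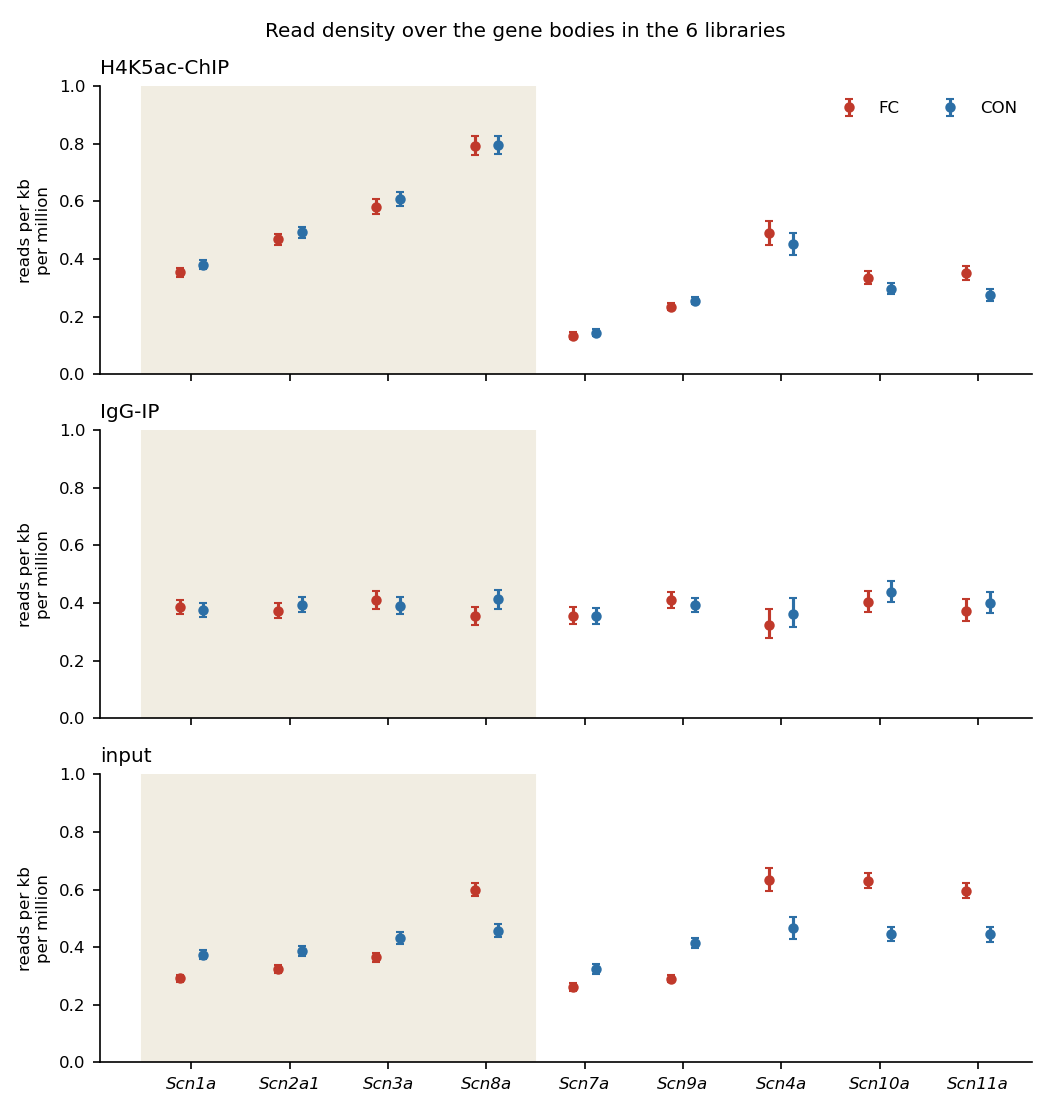
Read density over the gene body of each member, in RPKM, in the H4K5ac-ChIP, IgG-IP and input libraries of FC (red) and CON (blue), with exact 95% Poisson intervals; the neuronal members are shaded. In H4K5ac-ChIP the members run from 0.13 (Scn7a) to 0.80 (Scn8a), while in IgG-IP all lie between 0.32 and 0.44.

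Scn8a (ENSMUSG00000023033.7, chr15:100785829-100876360, plus strand) encodes NaV1.6, a channel of the axon initial segment and of nodes of Ranvier. It had the highest H4K5ac-ChIP density of the members, 0.79 RPKM in FC and 0.80 in CON. In IgG-IP it had 0.35 and 0.41 RPKM, and in input 0.60 and 0.46. It was thus above IgG-IP in both groups, by a log2 ratio of 1.17 (1.02 to 1.31) in FC and 0.95 (0.82 to 1.08) in CON, and above input by 0.40 (0.32 to 0.49) and 0.80 (0.71 to 0.89). The annotation holds a second, shorter record named Scn8a (ENSMUSG00000090536.1) that ends 14599 bp before it. Counted apart, that record was above IgG-IP by 0.82 (0.33 to 1.34) in FC and 0.82 (0.37 to 1.29) in CON.

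Scn3a (ENSMUSG00000057182.7, chr2:65295175-65405684, minus strand) and Scn2a1 (ENSMUSG00000075318.6, chr2:65458914-65605504, plus strand) came next among the neuronal genes. Scn3a had 0.58 RPKM in FC and 0.61 in CON, against 0.41 and 0.39 in IgG-IP and 0.36 and 0.43 in input. Over IgG-IP this was a log2 ratio of 0.50 (0.38 to 0.63) in FC and 0.63 (0.51 to 0.76) in CON. NaV1.3 is thought of as a channel of the immature brain, and its gene body in these adult libraries carried more H4K5ac reads per base than that of Scn2a1 or Scn1a. Scn2a1 had 0.47 and 0.49 RPKM, against 0.37 and 0.39 in IgG-IP and 0.32 and 0.39 in input, a log2 ratio over IgG-IP of 0.32 with an interval of 0.21 to 0.44 in FC and 0.22 to 0.43 in CON.

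Scn1a (ENSMUSG00000064329.7, chr2:66108838-66278897, minus strand), the longest member with 170.06 kb, was the lowest of the neuronal genes. Its H4K5ac-ChIP density was 0.35 RPKM in FC and 0.38 in CON. IgG-IP gave 0.39 and 0.38 RPKM and input 0.29 and 0.37, so the ChIP library did not exceed IgG-IP, with log2 ratios of -0.13 (-0.24 to -0.02) and 0.02 (-0.09 to 0.12). Against input it gave 0.27 (0.18 to 0.36) for FC, but for CON only 0.02 (-0.06 to 0.11). Its gene body overlaps the antisense lincRNA Gm13630 over 12095 bp, and ChIP reads do not separate the strands.

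Among the other members, Scn7a (ENSMUSG00000034810.7, chr2:66511482-66622971, minus strand) had the lowest density of all, 0.13 RPKM in FC and 0.14 in CON. IgG-IP gave 0.36 and 0.35 RPKM there and input 0.26 and 0.32. The log2 ratio over IgG-IP was -1.41 (-1.59 to -1.23) and -1.30 (-1.47 to -1.14), the lowest of the members in both groups. In the FC input library 18.8% of the reads over Scn7a had a mapping score under 20, against 6.93% in CON input.

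Scn9a (ENSMUSG00000075316.4, chr2:66318137-66473009, minus strand), the sodium channel of pain-sensing neurons whose loss abolishes pain, was next to lowest in density. It had 0.23 RPKM in FC and 0.26 in CON, against 0.41 and 0.39 in IgG-IP and 0.29 and 0.41 in input. Its log2 ratio over IgG-IP was -0.80 (-0.93 to -0.68) and -0.62 (-0.74 to -0.51). The antisense transcript Gm13629 covers 65947 bp of this gene.

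Scn10a (ENSMUSG00000034533.8, chr9:119517584-119603478, minus strand) and Scn11a (ENSMUSG00000034115.9, chr9:119662881-119734574, minus strand) encode the tetrodotoxin-resistant channels of nociceptors. Scn10a had 0.33 RPKM in FC and 0.30 in CON, against 0.40 and 0.44 in IgG-IP and 0.63 and 0.45 in input. Scn11a had 0.35 and 0.28 RPKM, against 0.37 and 0.40 in IgG-IP and 0.60 and 0.44 in input. Over IgG-IP the log2 ratio of Scn10a was -0.27 (-0.43 to -0.11) for FC and -0.57 (-0.72 to -0.42) for CON, and that of Scn11a -0.09 (-0.27 to 0.09) and -0.54 (-0.71 to -0.37), so that Scn11a did not differ from IgG-IP beyond counting error in FC. Both were below input in both groups, Scn10a by log2 ratios of -0.91 (-1.02 to -0.80) and -0.59 (-0.72 to -0.47) and Scn11a by -0.77 (-0.89 to -0.65) and -0.69 (-0.83 to -0.56).

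Scn4a (ENSMUSG00000001027.7, chr11:106179906-106214602, minus strand), the skeletal muscle channel and the shortest member, was the exception among the other genes when read against IgG-IP. Its density was 0.49 RPKM in FC and 0.45 in CON, with IgG-IP at 0.32 and 0.36 and input at 0.63 and 0.47. The log2 ratio was 0.59 (0.33 to 0.85) and 0.31 (0.08 to 0.55) over IgG-IP, but -0.37 (-0.53 to -0.22) and -0.04 (-0.21 to 0.13) over input. It also had the highest GC content, 51.4%, where the GC median over IgG-IP was 1.13 for FC and 0.93 for CON.

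A gene was called enriched where H4K5ac-ChIP was at least 2-fold over the control library. Over IgG-IP, 1 of 9 members was called in FC, Scn8a, where 29.5% of 19173 genes tested were called. In CON 0 of 9 were called, where 21.9% of all genes were, and Scn8a reached 1.93-fold. Over input 0 of 9 were called in FC and 0 of 9 in CON, where 4.1% and 14.3% of all genes were called. The family as a whole was not high in H4K5ac: its median log2 ratio to IgG-IP was -0.09 (FC) and 0.02 (CON), against 0.64 and 0.57 for all genes tested.

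Against IgG-IP the order in FC ran Scn8a, Scn4a, Scn3a, Scn2a1, Scn11a, Scn1a, Scn10a, Scn9a and Scn7a. The neighbours Scn4a and Scn3a, Scn11a and Scn1a, and Scn1a and Scn10a did not differ beyond counting error, and the other neighbours did. In CON it ran Scn8a, Scn3a, Scn2a1, Scn4a, Scn1a, Scn11a, Scn10a, Scn9a and Scn7a, where Scn2a1 and Scn4a, Scn11a and Scn10a, and Scn10a and Scn9a did not differ beyond it. The median of the neuronal genes was 0.41 (FC) and 0.48 (CON), and that of the other genes -0.27 and -0.57.

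Against input all 4 neuronal genes lay above all 5 other genes in both groups. In FC the lowest neuronal gene was Scn1a, at 0.27, and the highest other gene was Scn9a, at -0.31. In CON these were Scn1a, at 0.02, and Scn4a, at -0.04, a difference of 0.07 (-0.12 to 0.26) that did not exceed counting error.

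Set against the GC median, the division was the same with either control library. Over IgG-IP the neuronal genes lay at -0.06 (Scn1a), 0.39 (Scn2a1), 0.58 (Scn3a) and 0.33 (Scn8a) from the GC median in FC, and at -0.02, 0.29, 0.60 and 0.27 in CON. The other genes lay at -0.98 (Scn7a), -0.37 (Scn9a), -0.54 (Scn4a), -1.11 (Scn10a) and -0.85 (Scn11a) in FC, and at -0.997, -0.32, -0.62, -1.25 and -1.19 in CON. Each of the 5 other genes was below its GC median and 3 of the 4 neuronal genes were above it, in FC and in CON and with either control. Scn1a was just below it throughout, by -0.06 to -0.01. On this scale Scn3a was the highest member in all 4 pairs of libraries, and Scn8a, which had been highest in 3 of the 4, was close to Scn2a1. In CON over IgG-IP, 88.9% of the genes tested lay below Scn3a and 9.21% below Scn10a after the adjustment.

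**Figure D2:**
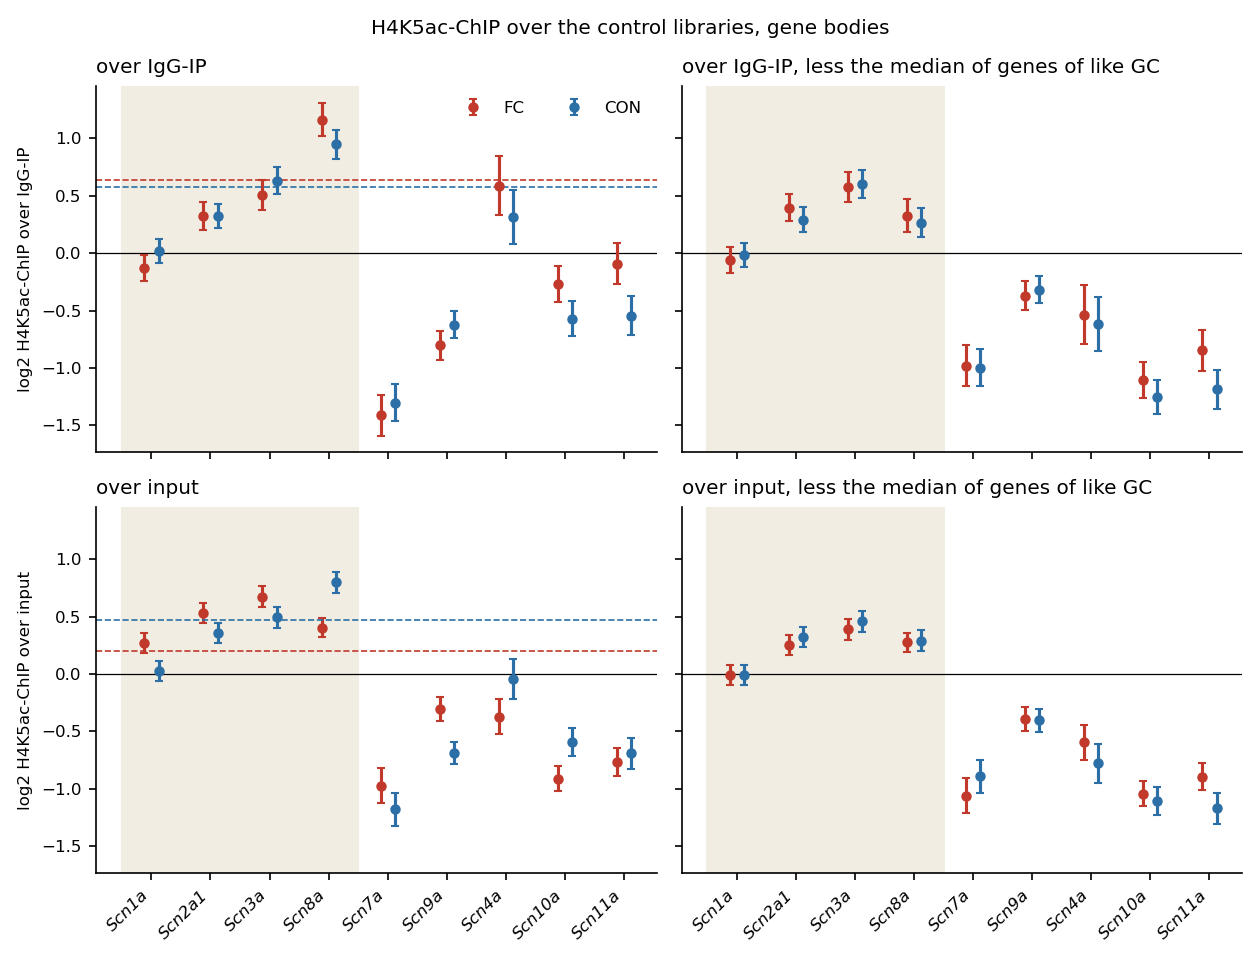
Log2 ratio of each member in H4K5ac-ChIP to IgG-IP (top) and to input (bottom) in FC (red) and CON (blue), with 95% counting intervals, as measured (left) and less the GC median (right); dashed lines mark the median of all genes tested and the neuronal members are shaded. On the right every neuronal gene lies above every other gene, from -0.06 upwards against -0.32 and lower.

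The ratio over IgG-IP was also followed along each gene body. In 10 equal bins from the TSS, Scn8a was above IgG-IP in every bin of both groups, from 0.55 to 1.82 on the log2 scale. Scn7a and Scn9a were below IgG-IP in every bin of both groups, from -2.23 to -0.24 for Scn7a and from -1.27 to -0.23 for Scn9a. Some of these bins had intervals that include 0, among them -0.24 (-0.83 to 0.37) for Scn7a and -0.23 (-0.64 to 0.20) for Scn9a, both in CON. Scn3a was highest in the first bins of FC, 0.93, 0.98, 0.83 and 0.87, and lowest in the fifth and the sixth, where it did not exceed 0.02. In CON it was highest in the ninth bin, 0.94, and lowest in the eighth, 0.26, with 0.54 and 0.58 in the fifth and the sixth. Scn2a1 was highest in the middle of the gene, with 0.71 in the fourth bin of FC and 0.88 in the third bin of CON. Scn4a was highest in its 3′ part, with 1.22 in FC and 0.86 in CON in the seventh bin.

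**Figure D3:**
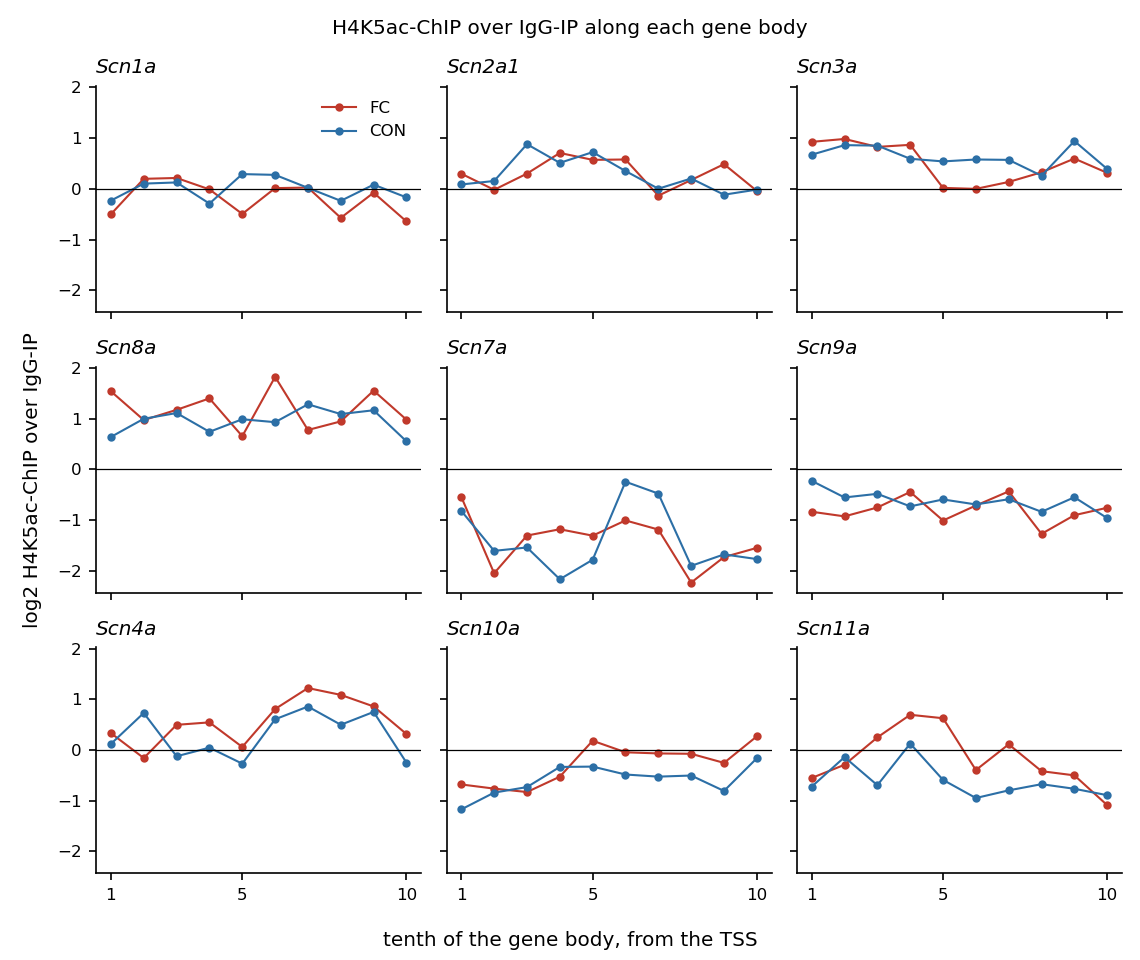
Log2 ratio of H4K5ac-ChIP to IgG-IP in 10 equal bins of each gene body, from the TSS to the end, in FC (red) and CON (blue). Scn8a stays between 0.55 and 1.82, Scn9a between -1.27 and -0.23, and Scn7a between -2.23 and -0.24.

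The genes were also divided into windows of 1 kb, in which Scn4a lay above Scn1a and the other neuronal genes above the other members. With FC and CON added, the median window held 54 H4K5ac-ChIP reads in Scn8a, 40.5 in Scn3a, 34 in Scn2a1 and 26 in Scn1a. It held 30 in Scn4a, 22 in Scn10a, 20 in Scn11a, 17 in Scn9a and 9 in Scn7a. The median for IgG-IP was between 11 and 14 in all 9 genes. Of the 111 windows of Scn7a, 13 held no H4K5ac-ChIP read, and so did 7 of the 170 of Scn1a and 2 of the 85 of Scn10a. The other 6 members had no such window, and the lowest window of Scn8a held 22 reads. Windows without IgG-IP or input reads were not counted, so stretches that give few reads in any library were not set apart.

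The strongest window of each gene is given as a description, since it was chosen for its count. In Scn8a it lay in an intron 73 to 74 kb after the start (chr15:100858829-100859828), with 53 H4K5ac-ChIP and 10 IgG-IP reads in FC and 59 and 12 in CON. In Scn2a1 it lay in an intron 47 to 48 kb after the start (chr2:65505914-65506913), with 39 and 5 reads in FC and 39 and 1 in CON. In Scn3a it lay in an intron 94 to 95 kb after the start, with 45 and 8 reads in FC and 37 and 12 in CON. Among the other genes, the window of Scn10a at 80 to 81 kb, which holds exon and intron, had 41 H4K5ac-ChIP and 5 IgG-IP reads in FC but 20 and 7 in CON, and the strongest of Scn7a, 1 kb upstream of its start, had 14 and 14 in FC and 16 and 10 in CON. The strongest windows of Scn1a, Scn9a, Scn4a and Scn11a lay 33, 37, 26 and 22 kb after the start, with 65, 37, 64 and 52 H4K5ac-ChIP reads over both groups against 16, 12, 17 and 16 IgG-IP reads.

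At the first start of Scn2a1, which the RE1-like match precedes, there were, within 1 kb on either side, 22 H4K5ac-ChIP and 5 IgG-IP reads in FC and 25 and 9 in CON, with ratios of 1.02 (-0.42 to 2.78) and 0.35 (-0.80 to 1.63). Both intervals include 0. Another annotated start of Scn2a1, 49588 bases further on, had 72 and 11 reads in FC and 53 and 18 in CON. Its ratios were 1.59 (0.67 to 2.66), an interval above 0, and 0.43 (-0.36 to 1.29). At the starts 60191 and 61423 bases on, the intervals of both groups included 0.

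At their first starts, within 1 kb on either side, Scn8a had 57 H4K5ac-ChIP and 6 IgG-IP reads in FC and 67 and 16 in CON, with log2 ratios of 2.13 (0.92 to 3.63) and 0.94 (0.14 to 1.83). The start of the shorter Scn8a record, which lies upstream, had 39 and 4 reads in FC and 62 and 22 in CON. Its ratios were 2.17 (0.70 to 4.11) and 0.37 (-0.35 to 1.14). Scn3a had 46 and 5 reads in FC and 44 and 10 in CON, with ratios of 2.08 (0.76 to 3.77) and 1.01 (0.00 to 2.17), the lower limit in CON touching 0. For no other member did the intervals at the first start lie above 0 in both groups. That of Scn4a did in FC, at 2.34 (0.32 to 5.47) on 22 and 2 reads, but in CON it was -0.12 (-1.14 to 0.96). Over IgG-IP Scn9a had 0.72 (-0.53 to 2.17) and 0.72 (-0.32 to 1.90), above 0 where its gene body was below. Scn1a had 0.95 (-0.07 to 2.11) and 0.25 (-0.64 to 1.22), and Scn11a -1.04 (-2.08 to 0.01) and 0.05 (-0.84 to 0.99). Scn10a had 13 and 14 reads in FC and 14 and 12 in CON, with ratios of -1.23 (-2.43 to -0.03) and -0.90 (-2.12 to 0.34). Scn7a had 21 and 15 in FC and 25 and 19 in CON, with ratios of -0.63 (-1.66 to 0.43) and -0.73 (-1.65 to 0.21), which include 0. Input gave another reading for some of these windows. In FC, H4K5ac-ChIP was below input at the starts of Scn9a (0.40 and 0.65 RPKM), Scn4a (0.35 and 0.56) and the shorter Scn8a record (0.62 and 0.69). In CON, Scn9a had 0.50 and 0.30 RPKM, Scn4a 0.36 and 0.41, and the shorter record 0.86 and 0.39. Scn8a and Scn3a were above input in both groups.

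In the promoter, 1 of 9 members was called at 2-fold over IgG-IP in each group, and it was Scn8a both times. Of 34416 promoters tested in FC 30.2% were called, and of 34415 in CON 24.6%. Scn8a had 151 H4K5ac-ChIP, 22 IgG-IP and 129 input reads in FC and 159, 33 and 99 in CON, or log2 ratios to IgG-IP of 1.66 (1.01 to 2.38) and 1.14 (0.60 to 1.73). Scn7a was the lowest, with 48, 52 and 78 reads in FC and 37, 48 and 72 in CON, and ratios of -1.23 (-1.83 to -0.64) and -1.5 (-2.16 to -0.85). The other 7 members lay between -1.02 (Scn10a in CON) and 0.58 (Scn2a1 in FC). The promoter of Scn2a1 went from -0.29 (-0.84 to 0.27) in CON to 0.58 (-0.16 to 1.38) in FC, but it was the IgG-IP library that differed, with 20 reads in FC and 45 in CON, while H4K5ac-ChIP had 65 and 80. The calls at the promoter rest on few reads: with a promoter of 2 kb or a window of 1 kb on either side of the TSS, Scn8a had too few IgG-IP reads to be tested, and 0 members were called. Its ratio in the promoter of 2 kb, 2.79 (1.36 to 4.71) for FC and 1.46 (0.53 to 2.53) for CON, was no smaller than in that of 5 kb.

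The 5 members of chromosome 2 lie in a cluster, in the order Scn3a, Scn2a1, Scn1a, Scn9a and Scn7a, and their H4K5ac was lower from each gene to the next. Scn3a and Scn2a1 were above IgG-IP, Scn1a was near it, Scn9a was below it and Scn7a was lowest. The DNA between the genes was read in the same way. The 53.23 kb between Scn3a and Scn2a1 had a log2 ratio of -0.16 (-0.38 to 0.07) in FC and -0.22 (-0.42 to -0.01) in CON, below both genes. The 39.24 kb between Scn1a and Scn9a had -0.59 (-0.84 to -0.33) and -0.52 (-0.75 to -0.28), and the 38.47 kb between Scn9a and Scn7a had -0.97 (-1.23 to -0.71) and -0.98 (-1.23 to -0.73).

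Beyond Scn7a there is no protein-coding gene for 646.31 kb, and this interval had a log2 ratio of -1.39 (-1.46 to -1.31) in FC and -1.31 (-1.38 to -1.25) in CON. The gene body of Scn7a, at -1.41 and -1.30, had intervals that include these values. The highest part of the region was not a sodium channel gene. Csrnp3, which encodes a nuclear protein and lies 78.32 kb from Scn2a1, had 1.18 (1.09 to 1.28) in FC and 1.08 (0.99 to 1.17) in CON, above each of the 5 members of the cluster. Ttc21b, next to Scn1a, had 0.39 (0.23 to 0.55) and 0.33 (0.19 to 0.47), and Slc38a11, which flanks Scn3a, had 0.02 (-0.19 to 0.22) and 0.05 (-0.14 to 0.24). F830016D02Rik, the gene beyond the long interval, had 21 H4K5ac-ChIP and 23 IgG-IP reads in FC and was not read further.

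**Figure D4:**
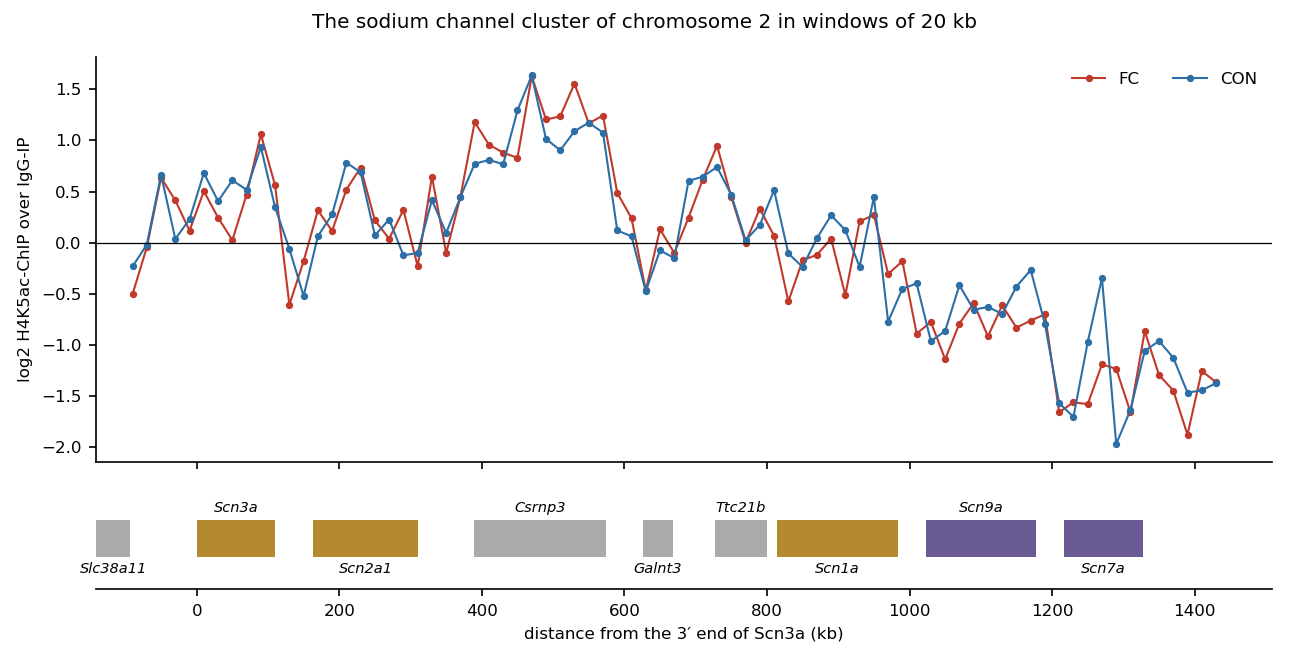
Log2 ratio of H4K5ac-ChIP to IgG-IP in windows of 20 kb across the sodium channel cluster of chromosome 2, in FC (red) and CON (blue), by distance from the 3′ end of Scn3a, with the protein-coding genes below (neuronal members brown, other members purple, other genes grey). The ratio peaks over Csrnp3, at 1.63 in FC and 1.64 in CON, and is below 0 in every window from Scn9a to Scn7a.

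On chromosome 9, Scn10a and Scn11a lie side by side. The protein-coding gene next to Scn11a, Wdr48, had log2 ratios over IgG-IP of 0.72 (0.49 to 0.95) and 0.71 (0.49 to 0.93), above both members. On chromosome 15, Scn8a did not stand out over IgG-IP from its neighbour Slc4a8, a bicarbonate transporter of neurons, at 1.14 (0.97 to 1.32) and 0.93 (0.77 to 1.08). Over input in FC, Slc4a8 was lower, at 0.19 (0.09 to 0.29) against 0.40 (0.32 to 0.49) for Scn8a. In CON these were 0.85 (0.73 to 0.96) and 0.80 (0.71 to 0.89). The 131.43 kb between Slc4a8 and the Scn8a record used had 0.95 (0.83 to 1.07) and 0.82 (0.71 to 0.94) over IgG-IP. This stretch holds the shorter Scn8a record and is not all DNA between genes. Ankrd33, on the other side, had 0.67 (-0.07 to 1.46) and 1.54 (0.74 to 2.43), on 69 H4K5ac-ChIP and 20 IgG-IP reads in FC. On chromosome 11, the neighbours of Scn4a were Cd79b, a B cell receptor component, at 1.82 (0.81 to 3.01) and 0.30 (-0.43 to 1.08), and 2310007L24Rik, at 0.78 (0.30 to 1.28) and 0.38 (-0.04 to 0.82).

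The second question of the design was whether H4K5ac over these genes differed between FC and CON. Counts were scaled to the size of each library, so a change of the mark over the whole genome would not show in these ratios. By immunoblot, the paper reports a higher H4K5ac level in the hippocampus after the memory test than in controls. Of the 9 members, Scn1a and Scn9a had intervals below 0 and Scn10a and Scn11a intervals above 0, and the other intervals included 0. In the H4K5ac-ChIP libraries the neuronal genes had log2 ratios of FC over CON of -0.11 (-0.20 to -0.02) for Scn1a, -0.08 (-0.16 to 0.01) for Scn2a1 and -0.06 (-0.15 to 0.02) for Scn3a, and Scn8a had a ratio of 1.00-fold. Less the GC median these were -0.02, 0.02, 0.03 and, for Scn8a, -0.08. The median over the 9 members was -0.06, and over all genes tested 0.04.

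Scn9a had -0.12 (-0.24 to -0.01) and Scn10a 0.18 (0.04 to 0.31). With a threshold of 0.32 on the log2 scale, 1 of 9 members was called higher in FC, where 9.91% of 22226 genes were, and 0 of 9 were called lower, where 3.64% were. The member called was Scn11a, with 794 reads in FC and 710 in CON, or 0.35 and 0.28 RPKM. Its log2 ratio was 0.35 (0.20 to 0.50), while its IgG-IP libraries gave -0.10 (-0.30 to 0.09) and its input libraries gave 0.42 (0.32 to 0.53). Less the GC median the ratio was 0.29, under the threshold. Less the ratio of the IgG-IP libraries it was 0.45 (0.21 to 0.69), and less that of the input libraries -0.0747 (-0.25 to 0.11), an interval that includes 0.

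Within Scn11a the H4K5ac-ChIP density was higher in FC than in CON in 9 of the 10 bins, all but the second, which had 55 reads in FC and 87 in CON. The widest differences were in the third bin, with 98 and 66 reads or 0.43 and 0.26 RPKM, and in the fifth, with 124 and 84 reads or 0.55 and 0.33 RPKM. Input was also higher in FC in every bin but the sixth, with 0.56 and 0.44 RPKM in the third bin and 0.61 and 0.44 in the fifth. IgG-IP was lower in FC in these 2 bins, with 0.36 and 0.41 RPKM and 0.35 and 0.49. The bins were not tested and are given as a description.

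Between the groups, the ratio for input was further from 0 than that for H4K5ac-ChIP in each of the 9 members, and each interval for input excluded 0. The ratio for H4K5ac-ChIP less that for input had an interval that includes 0 for Scn11a, -0.0747 (-0.25 to 0.11), and for Scn7a, 0.21 (-0.001 to 0.41). FC over CON for input was -0.51 (-0.60 to -0.42) in Scn9a, -0.35 (-0.44 to -0.27) in Scn1a and -0.31 (-0.42 to -0.20) in Scn7a, and was 0.39 (0.30 to 0.48) in Scn8a, 0.44 (0.29 to 0.59) in Scn4a and 0.50 (0.40 to 0.59) in Scn10a. The 5 genes of chromosome 2 were all lower and the 4 genes of higher GC content were all higher in FC input.

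**Figure D5:**
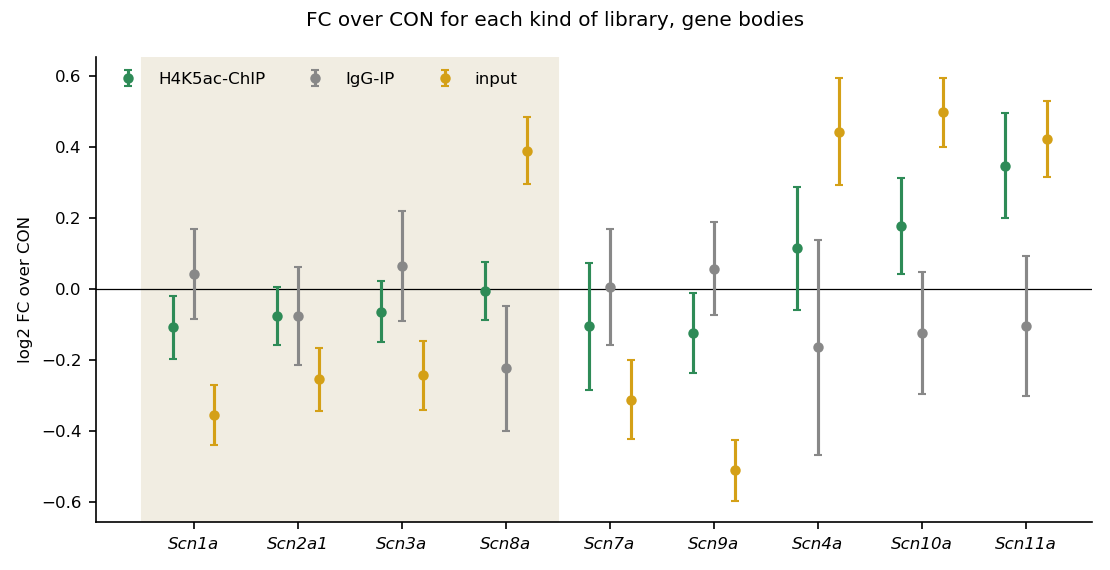
Log2 ratio of FC over CON for each member in the H4K5ac-ChIP (green), IgG-IP (grey) and input (yellow) libraries, with 95% counting intervals; the neuronal members are shaded. H4K5ac-ChIP stays between -0.12 and 0.35, while input runs from -0.51 in Scn9a to 0.50 in Scn10a.

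The change in enrichment from CON to FC therefore depended on the control library. The difference of log2 ratios, FC minus CON, was 0.22 (0.03 to 0.41) for Scn8a over IgG-IP and -0.39 (-0.52 to -0.27) over input. For Scn10a it was 0.30 (0.09 to 0.52) and -0.32 (-0.48 to -0.16), and for Scn9a -0.18 (-0.35 to -0.01) and 0.39 (0.25 to 0.53). For Scn1a it was -0.15 (-0.30 to 0.00) over IgG-IP, an interval that includes 0, and 0.25 (0.13 to 0.37) over input. For Scn11a, the member with the largest difference over IgG-IP, the values were 0.45 and -0.0747 as given above. Scn8a, Scn10a and Scn9a, 3 members, had intervals off 0 in opposite directions with the 2 controls, and 0 members had intervals off 0 in the same direction with both.

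In the promoter 0 of 9 members were called higher in FC H4K5ac-ChIP at 1.5-fold and 0 of 9 lower, where 4.82% and 3.17% of 33710 promoters were. The extreme ratios were 0.56 (-0.09 to 1.22) in Scn7a, with 48 reads in FC and 37 in CON, and -0.21 (-0.66 to 0.24) in Scn3a, with 76 and 100. With promoters of 2 kb, 1 member was called higher, Scn1a, and 3 lower, Scn2a1, Scn9a and Scn11a, where 9.27% and 5.62% of all promoters of that length were. Of these, the interval of Scn11a alone excluded 0, at -1.24 (-2.28 to -0.29).

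The genes whose products act with the alpha subunits had a higher median ratio than the alpha subunits themselves. They include beta subunits, the fibroblast growth factor homologous factors, the leak channel Nalcn and anchoring proteins of the axon initial segment. Their GC content ran from 37.7% in Fgf14 to 54.6% in Fgf11, and the part of GC content in the difference of medians was not tested. Of these 14 partner genes, 6 were called at 2-fold over IgG-IP in FC and 4 in CON, where 29.5% and 21.9% of all genes were, with a median log2 ratio of 0.85 and 0.72 against 0.64 and 0.57 for all genes. Over input 0 were called in FC and 2 in CON, where 4.1% and 14.3% of all genes were. Of the beta subunits, which are single-pass proteins that modulate gating and adhesion, Scn2b had 1.5 (1.09 to 1.94) in FC, Scn3b 1.09 (0.82 to 1.37) and Scn4b 1.31 (0.93 to 1.72). In CON these had 0.68, 0.75 and 0.80, so that over IgG-IP all 3 lay above the median of all genes in both groups. Scn2b and Scn4b had a GC content of 51.4 and 51.8%, where the GC median was 1.13 for FC and 0.93 for CON. Both lay above it in FC and below it in CON. Over input in FC the 3 genes had 0.40, 0.64 and 0.13, against 0.20 for all genes.

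The highest partners in FC were Nfasc, the axon initial segment adhesion molecule neurofascin, with 1.68 (1.58 to 1.78), and Fgf11, a fibroblast growth factor homologous factor, with 1.59 (1.00 to 2.23). The lowest were Fgf13, at -0.56 (-0.65 to -0.47), and Fgf12, at -0.16 (-0.24 to -0.08), which are homologous factors too and bind the C-terminus of the channels. Both were of low GC content, 37.9% in Fgf13 and 38.9% in Fgf12. The GC median over IgG-IP at these contents was -0.43 and -0.07 for FC, and -0.30 and 0.03 for CON. In CON Fgf13 had -0.35 (-0.44 to -0.27) over IgG-IP, but Fgf12 had 0.12 (0.04 to 0.19). Over input Fgf13 had 0.13 (0.05 to 0.20) in FC and -0.28 (-0.35 to -0.21) in CON. Fgf12 had 0.37 (0.31 to 0.44) and 0.21 (0.15 to 0.27) over input. Between FC and CON 1 of the 14 was called, Scn2b, at 0.35 (0.13 to 0.58) in H4K5ac-ChIP, where 9.91% of all genes were. For Scn2b the IgG-IP libraries gave -0.46 (-0.98 to 0.04) and the input libraries 0.53 (0.28 to 0.78).

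The voltage-gated calcium channel alpha 1 genes are 10 genes of the same superfamily, and their ratios over IgG-IP spanned a narrower range than those of the sodium channels. In FC they ran from 0.57 (0.21 to 0.93) in Cacna1f and 0.66 (0.55 to 0.76) in Cacna1b to 1.18 (1.13 to 1.23) in Cacna1c and 1.35 (1.17 to 1.53) in Cacna1h, with a median of 0.89. All 10 were above IgG-IP, including Cacna1s of skeletal muscle with 0.82 and Cacna1f of the retina, and 4 were called in FC and 2 in CON, where 29.5% and 21.9% of all genes were. The sodium channel alpha subunits ran from -1.41 to 1.17 on the same scale. The calcium channel genes were also of higher GC content, from 42.7% upwards, and the part of GC content in this contrast was not tested. Over input the calcium channel genes had a median of 0.11 in FC, with Cacna1s at -0.10 and Cacna1f at -0.09, and of 0.56 in CON, against 0.20 and 0.47 for all genes. Of the 10, 0 were called over input in FC and 1 in CON.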

How the data were processed

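Per the study's methods and labels, SOLiD fragments of 50 bp were mapped with Bioscope to mm9 by the authors. The deposited files list each mapped read by chromosome, start, end and strand with a score. The score is the authors' alignment quality, not a count, and was used only in an alternative. Reads that overlap an interval by at least 1 bp were counted in all 6 libraries from the lines as deposited, without normalization. Genes were those of GENCODE for the same build, from the first to the last annotated base, and the longer of 2 records was used for Scn8a. Densities have exact Poisson intervals, ratios of depth-scaled counts exact binomial intervals, and differences of log2 ratios normal intervals. A ratio was computed across all genes with at least 20 control reads in the gene body, or 10 in the promoter, in both groups, and GC medians needed at least 20 genes. Calls used 2-fold over a control library and, between groups, a log2 ratio of 0.32 for gene bodies and of 0.58 for promoters.

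The members, the partner, calcium channel and cell type marker lists and the thresholds were chosen with earlier results of these data known. Named are the 9 members, beta subunits, the 2 highest and 2 lowest genes of each list by FC gene body ratio over IgG-IP, neighbouring protein-coding genes and the strongest window of each member, and some items that the rule names are not reported here. Cacna1s was named after its values were seen. Sptbn4 was matched through its older symbol. Sequences were read from the mm9 genome. The counting and the intervals were tested on simulated data. Python 3.11.15, NumPy 2.4.6, SciPy 1.17.1, pyarrow 21.0.0 and matplotlib 3.10.9 were used. Other settings tried were 1 read for each position and strand, the midpoint of the read, a score of at least 20, gene bodies without bases of other genes or from 2 kb after the TSS, other promoters, scaling by the median of all genes or of genes of the same GC content, 1.5-fold, and the other control library. Leaving out each gene, and the genes of chromosome 2 alone, were added after seeing the data.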

Additional observations from a re-analysis of the deposited data

How the results depend on the processing

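No paired analysis was possible because each group has 1 library per antibody, and no library could be left out for the same reason. Counting 1 read per position and strand or by the midpoint, or leaving out bases of other genes or the first 2 kb, changed no count of called members. Over IgG-IP in the gene body, 0 members were called in FC less the median of all genes or of genes of the same GC content, and at 1.5-fold 2 were called in FC (Scn8a and Scn4a) and 2 in CON (Scn3a and Scn8a). Over input at 1.5-fold 1 was called in FC (Scn3a) and 1 in CON (Scn8a). In the promoter 0 were called with 2 kb upstream or 1 kb on either side of the TSS, in FC and CON, and 0 in CON less the median of all genes or of GC content. Between groups in the gene body, 0 members were higher in FC less either median, and less the input libraries 1 was higher (Scn9a, where 9.99% of all genes were) and 2 were lower (Scn8a and Scn4a, where 42.7% were), and the ratio of Scn11a became -0.0747. In the promoter 1 was higher in FC with a score of at least 20 or less the GC median (Scn7a) and 1 with 2 kb (Scn1a), and 3 were lower with 2 kb and 1 with 1 kb on either side (Scn11a). The cause was not tested. The log2 ratio of summed reads of neuronal over other members kept its sign throughout. In FC it was 1.01 with a score of at least 20, 0.75 in the promoter of 5 kb, 1.08 within 1 kb of the TSS, 1.13 less input, 1.03 over the reads that genes of the same GC content give and 1.23 on chromosome 2 alone. In CON it was 0.87 in the promoter of 5 kb, 0.53 in that of 2 kb, 0.68 within 1 kb of the TSS and 1.19 on chromosome 2. Leaving out each gene in turn gave 0.73 to 1.15 in FC and 0.88 to 1.26 in CON, lowest without Scn7a and highest without Scn1a in both. Over IgG-IP, Scn4a went from above to below 0 in both groups less either median, as did Scn2a1 in both groups and Scn3a in FC less the median of all genes. Depth is lowest near the TSS, where a member had 20 to 52 IgG-IP reads in the promoter of 5 kb and 2 to 19 within 1 kb of the start.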
